A study of Homo sapiens with 32 samples.

Results

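Iron uptake, storage and export genes of MDA-MB-468 cells, an established line of triple-negative breast cancer, were followed across treatment and time. The set was given as a list of 10 genes: TFRC, FTH1, FTL, SLC40A1, SLC11A2, NCOA4, ACO1, IREB2, STEAP3 and SLC39A14. Of these, 9 were matched by Ensembl identifier among the 48804 genes of the count table, and NCOA4 was not analysed here. The cells received PBS (control), 0.5 μM Sal (salinomycin, a polyether ionophore), 15 μM Das (dasatinib, an inhibitor of SRC and ABL family kinases) or both at these doses (S + D, 15.5 μM in all), and RNA was collected after 24 or 72 h. Each of the 8 conditions had 4 libraries, described as biological replicates, of which 3 carry a number and 1 does not. All 32 libraries come from this 1 line.

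A cell takes up iron bound to transferrin through the transferrin receptor TFRC, reduces it in the endosome with STEAP3 and moves it to the cytosol with SLC11A2, while SLC39A14 imports iron that is not bound to transferrin. Ferritin, a shell of FTH1 and FTL chains, stores the iron, NCOA4 carries ferritin to the lysosome for breakdown, and SLC40A1 (ferroportin) is the exporter. The iron regulatory proteins ACO1 and IREB2 bind a hairpin in some of these mRNAs, the iron-responsive element (IRE), which blocks translation when it lies in the 5′ untranslated region and protects the mRNA from decay when it lies in the 3′ untranslated region. Salinomycin is known to hold iron in lysosomes.

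The IRE hairpins that a search found are shown because this control acts through them. The counts are per gene and the search covered the main transcript only, so a gene without a match can still be under this control. The main (MANE Select) transcript of each gene was searched, on its own strand, for the letters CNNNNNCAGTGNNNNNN, with all 5 bases on either side of the loop able to pair and at least 4 of the 6 bases outside the bulge able to pair. Of 17002 5′ untranslated regions, 8 held such a match (0.0471%), and of 18515 3′ untranslated regions, 18 did (0.0972%). Of the members, 4 had at least 1 match, and no match was found in the searched transcript of SLC11A2, ACO1, IREB2, STEAP3 or SLC39A14, which says only that these letters were not in these stretches. The 29 bases of each match are given 5′ to 3′ as DNA on the strand of the gene (GRCh37), with the bulged C and the CAGTG of the loop in capitals.
FTH1, 5′ untranslated region, exon, chr11:61735046-61735074, minus strand: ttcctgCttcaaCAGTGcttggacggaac
FTL, 5′ untranslated region, exon, chr19:49468592-49468620, plus strand: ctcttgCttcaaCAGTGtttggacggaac
SLC40A1, 5′ untranslated region, exon, chr2:190445387-190445415, minus strand: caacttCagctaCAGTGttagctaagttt
TFRC, 3′ untranslated region, exon, chr3:195777850-195777878, minus strand: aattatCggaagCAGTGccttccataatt
TFRC, 3′ untranslated region, exon, chr3:195777446-195777474, minus strand: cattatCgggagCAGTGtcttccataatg
TFRC, 3′ untranslated region, exon, chr3:195777381-195777409, minus strand: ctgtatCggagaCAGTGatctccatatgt
TFRC, 3′ untranslated region, exon, chr3:195777334-195777362, minus strand: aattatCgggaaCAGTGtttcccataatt
In this search the ferritin genes had 1 match each ahead of the coding sequence, as did the exporter, and the receptor had 4 within 545 bases after it. Hairpins that miss the pairing rule of the search are not listed. RNA-seq counts measure the amount of mRNA, so control of translation through the 5′ hairpins is outside this measurement.

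Total counts ran from 25692561 to 42769687 per library. The line markers EPCAM, KRT8, KRT18, KRT19, KRT5, EGFR and CDH1 were detected in every library, and their sum at 72 h was 11100 to 12200 CPM (counts scaled to the library total) in the control, 6760 to 7300 with Sal, 7330 to 9780 with Das and 4770 to 6400 with S + D, each treatment below every control. Of the receptors that define the subtype, PGR was at 0 in 25 of 32 libraries, and ESR1 and ERBB2 were present at no more than 12 CPM and at 56.8 to 192 CPM. Of the 8 markers of other cell types, 7 were matched. Their summed level was 24.1 to 32.7 CPM in the control at 72 h and 55.8 to 78.3, 33.6 to 69.0 and 68.8 to 123 CPM with Sal, Das and S + D. COL1A1 made up most of it (18.2 to 120 CPM), while PTPRC, CD3E, CD68 and COL1A2 stayed at or under 0.232 CPM, and the part of these levels in the results was not tested. The 8 unnumbered libraries stood apart: their deviations from the group means across genes correlated with each other (median r 0.617 at 24 h and 0.563 at 72 h, 6 pairs each), against 0.218 and 0.141 for libraries of different number (36 pairs each). Results are therefore also given for the 3 numbered libraries per condition. CPM is relative to the RNA of each library, so a change in the total RNA per cell is not seen in it. A shift in the mix of cells cannot be told apart from a change of level within cells in such bulk samples.

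In untreated cells at 24 h, the storage gene FTH1 had the highest level of the set, 1309 ± 222 CPM per kilobase of the main transcript (SD, n = 4), against 164 ± 4.95 for its partner FTL and 136 ± 12.5 for TFRC. STEAP3 (29.4 ± 1.32), SLC11A2 (22.04 ± 0.738), IREB2 (14.6 ± 0.788), SLC39A14 (7.62 ± 1.10) and ACO1 (5.51 ± 0.412) followed, and SLC40A1 was lowest at 0.230 ± 0.0493 CPM per kilobase. The ranges over libraries of neighbours in this order did not overlap. At 72 h the order in the control was the same, with overlapping ranges for STEAP3 (29.7 ± 2.26) and SLC11A2 (27.4 ± 1.79). With Sal at 72 h, FTL (1623 ± 37.3) reached the range of FTH1 (1818 ± 284), and with S + D it did so too (1662 ± 244 and 1989 ± 719). SLC40A1 remained the lowest of the 9 genes in all 8 conditions.

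**Figure D1:**
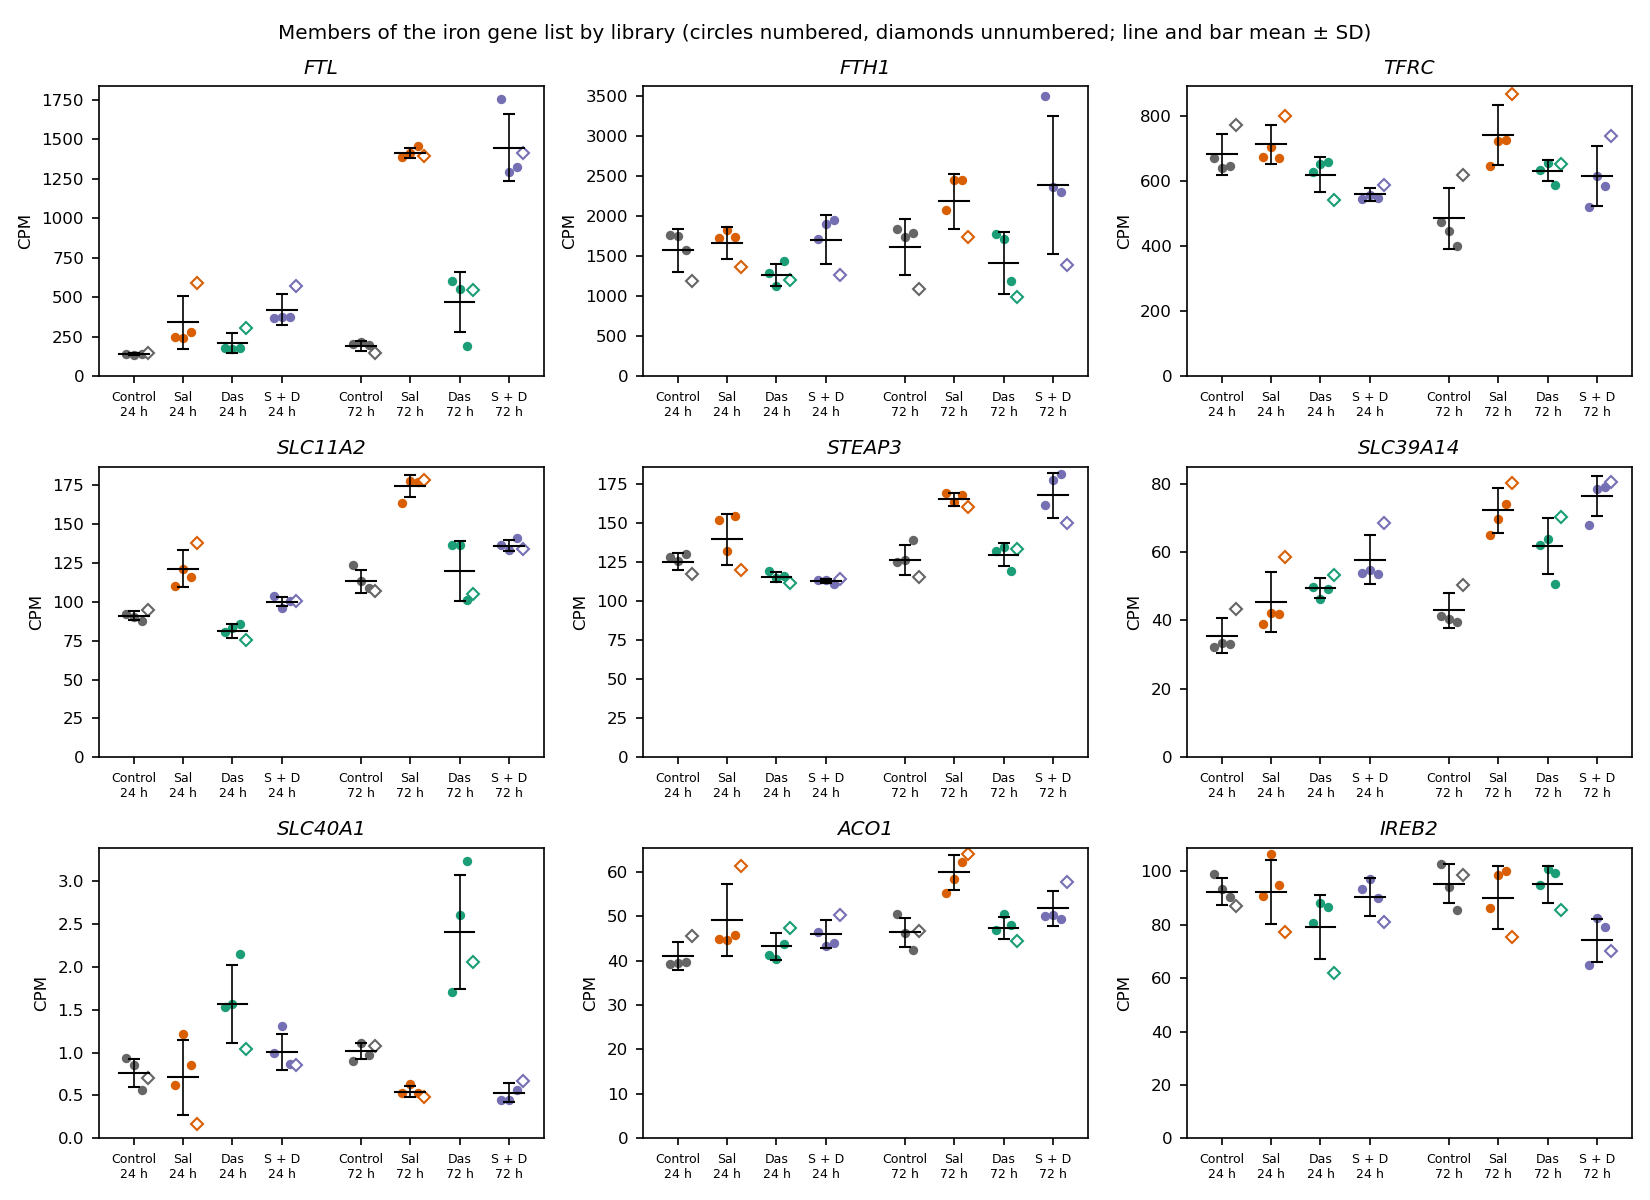
CPM (vertical axis, linear from 0) of the 9 matched genes in each of the 8 conditions (horizontal axis). Filled circles are the 3 numbered libraries, open diamonds the unnumbered library, and the line with its bar is the mean ± SD of the 4. FTL lies near 150 CPM in the controls at 24 h and at or above 1292 CPM in every library of Sal and S + D at 72 h, and SLC40A1 is high with Das and low with Sal and S + D at 72 h.

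Over all libraries, more of the genes were called at 72 h than at 24 h, and the share of all genes called was larger too. In the numbered libraries, given below, the counts at 24 and 72 h lay closer together. At an adjusted p under 0.01 over all genes tested (edgeR quasi-likelihood test, Benjamini-Hochberg), Sal at 24 h raised 2 of the 9 genes and lowered 0, where 6.78% of 16357 genes were called, 4.55% higher and 2.23% lower. Das at 24 h raised 1 and lowered 0 (13.9% of all genes called, 6.99% higher and 6.88% lower), and S + D raised 2 and lowered 0 (33.6% called, 17.1% higher and 16.5% lower). At 72 h, Sal raised 6 and lowered 1 (53.2% of 16682 genes called, 26.3% higher and 26.8% lower). Das at 72 h raised 3 and lowered 0 (19.9% called, 10.5% higher and 9.36% lower), and S + D raised 3 and lowered 2 (54.9% called, 27% higher and 27.9% lower). Their median change on the log2 scale was 0.15, -0.098 and 0.17 for Sal, Das and S + D at 24 h, and 0.42, 0.074 and 0.33 at 72 h, beside medians between -0.0192 and 0.0403 over all genes in these comparisons. The share of members called thus lay near the share of all genes called for Das at 24 h and S + D at 72 h. With the cutoff on size added (absolute log2 fold change above 1.5), FTL was the 1 gene that passed, with S + D at 24 h (6.06% of all genes passed) and with Sal (18.7%) and S + D (20.2%) at 72 h. No member passed both cutoffs with Sal (0.721%) or Das (2.49%) at 24 h or with Das at 72 h (5.02%).

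Among the numbered libraries alone, the SE at 24 h was smaller in all 27 responses of members to a treatment, and more genes were called. At 72 h it was smaller in 12 of 27, and Sal called 6 members, against 7 over all libraries. At 24 h, 5 rose and 0 fell with Sal (23.5% of 16257 genes called), 3 rose and 1 fell with Das (39.3%), and 4 rose and 1 fell with S + D (58.1%). At 72 h, 6 rose and 0 fell with Sal (57.3% of 16527 genes), 4 rose and 0 fell with Das (22.6%), and 5 rose and 1 fell with S + D (57.8%). Fits of the numbered libraries leave out how the unnumbered ones differ. Their SE and p-values thus reflect only the spread among numbered libraries.

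**Figure D2:**
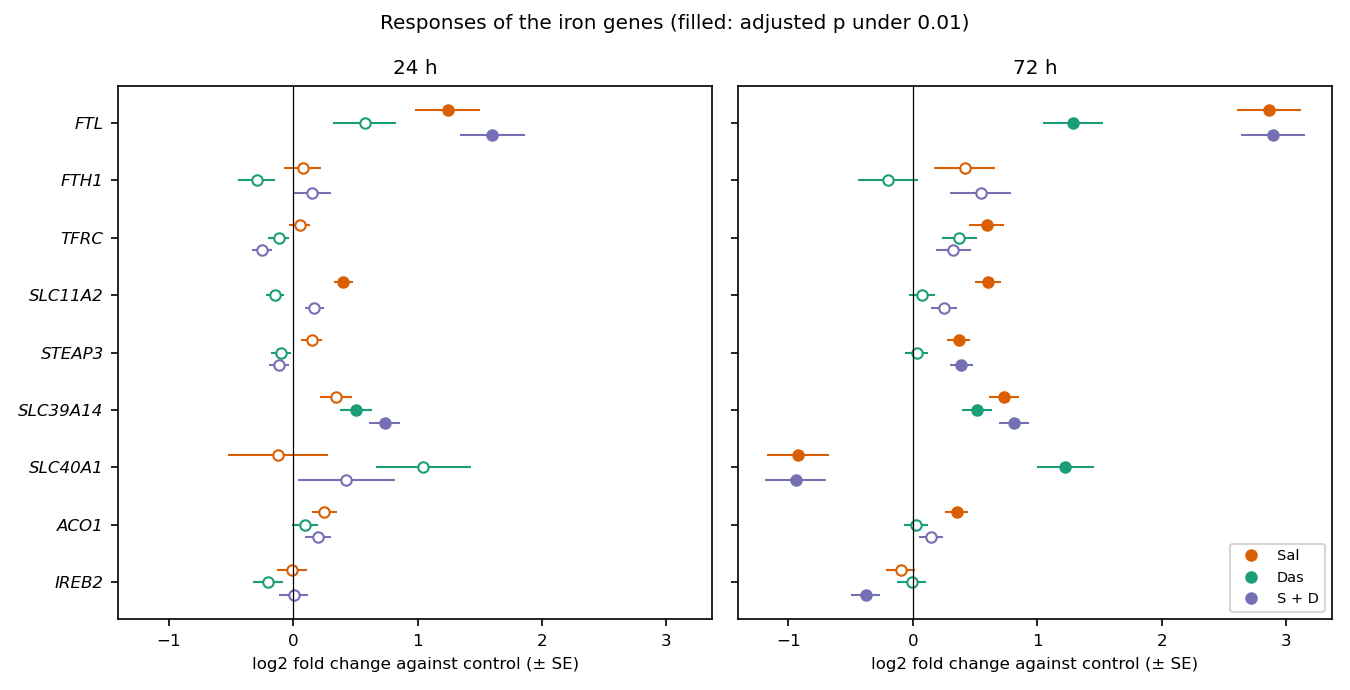
Log2 fold change against the control of the same time point (horizontal axis, bars ± SE) for the 9 genes (vertical axis) with Sal, Das and S + D at 24 h (left) and 72 h (right), 4 libraries per condition. Filled points passed an adjusted p under 0.01, and the responses of FTL to Sal (2.86) and S + D (2.90) at 72 h lie farthest from 0.

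Of the storage genes, FTL, the ferritin light chain, showed the widest change of the set. In the order replicate 1, 2, 3 and the unnumbered library, which is used throughout, its level at 72 h was 206, 215, 198 and 149 CPM in the control. Sal libraries held 1387, 1413, 1459.6 and 1396 CPM, Das libraries 603, 549.9, 191 and 544 CPM, and S + D libraries 1757, 1292, 1328 and 1412 CPM. All Sal and S + D libraries lay above all others of that time, while Das replicate 3 lay among the controls. Against the control, the log2 fold change was 2.86 ± 0.257 (SE) with Sal (7.27-fold, adjusted p = 8.87e-08), 1.29 ± 0.243 with Das (2.44-fold, adjusted p = 0.000744) and 2.90 ± 0.257 with S + D (7.45-fold, adjusted p = 6.43e-08). Without Das replicate 3 the response to Das was 1.57.

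At 24 h, FTL was at 144, 137, 143 and 147 CPM in the control, 246, 245, 279.7 and 592 in the Sal libraries, 178, 173, 182 and 304 in the Das libraries, and 367, 376, 374 and 573 in those given S + D. Every treated library was above every control, and in each treatment the unnumbered library was the highest. The log2 fold change was 1.24 ± 0.259 with Sal (adjusted p = 0.00445), 0.57 ± 0.256 with Das (adjusted p = 0.122) and 1.60 ± 0.261 with S + D (adjusted p = 0.000119). In the numbered libraries it was 0.88 ± 0.0521, 0.36 ± 0.0521 and 1.42 ± 0.0524, all called (adjusted p = 4.32e-10, 1.29e-05 and 9.01e-14). With a replicate block the response to Das passed too (adjusted p = 0.00476). The unnumbered library against its control gave log2 ratios of 2.01, 1.05 and 1.96, from 1 library each and with no test. With all libraries, the Sal response lost its call when any 1 of the 4 controls was left out, with adjusted p from 0.0123 to 0.0170 in those fits.

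FTH1, the heavy chain with the ferroxidase site, was called in no comparison with the control (edgeR; 0 of 6, of which 1 had an unadjusted p under 0.05). At 72 h its level was 1848, 1737, 1793 and 1095 CPM in the control and 2086, 2460.1, 2456 and 1747 with Sal. It was 1777, 1718, 1191 and 988 CPM with Das and 3505, 2369, 2308 and 1392 with S + D. The unnumbered library was the lowest of each of these conditions, and S + D replicate 1 was the highest of all 32 libraries. The log2 fold changes were 0.42 ± 0.244, -0.20 ± 0.243 and 0.55 ± 0.244 (adjusted p = 0.143, 0.561 and 0.0577), and in the numbered libraries S + D passed at 0.58 ± 0.174 (adjusted p = 0.00853), as it did with a replicate block (adjusted p = 0.00401), with a term for the unnumbered libraries (adjusted p = 0.00360) and without the unnumbered S + D library (0.78, adjusted p = 0.00678). Without S + D replicate 1, the highest library, the response was 0.31 (adjusted p = 0.270). Of 9 other settings, 6 left the S + D response uncalled, and those that passed each removed or modelled the unnumbered libraries, so they are not separate lines of support. At 24 h the levels ran from 1193 to 1761 CPM in the control, 1367 to 1826 with Sal, 1123 to 1440.1 with Das and 1272 to 1950.3 with S + D, and the fall with Das passed in the numbered libraries alone (-0.37 ± 0.0711, adjusted p = 0.000275).

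Of the exon bases that the annotation merges for FTH1, 63.2% overlap BEST1 on the other strand. BEST1 was at 0.368 to 9.64 CPM, so its listed counts were small beside those of FTH1, but whether the counting used the strand is not given in the sources used here. Ferritin pseudogenes, which resemble their parent genes, held 0.248 to 0.505% of the FTH1 counts (25 listed) and 0.0260 to 0.263% of the FTL counts (16 listed). Adding them to the parent gene changed no call in the 6 comparisons with the control. Reads left uncounted because they match several places would not be seen in this sum. How such reads were handled is not given in the sources used here, so the levels of FTL and FTH1 and their ratio carry this limit.

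The balance of the ferritin transcripts shifted with this. The ratio of FTL to FTH1, in CPM per kilobase, was 0.166 ± 0.0170 in the control at 72 h (SD, n = 4) and 0.909 ± 0.140 in the Sal libraries, 0.473 ± 0.221 in the Das libraries and 0.910 ± 0.330 under S + D. By library it was 0.152 to 0.188 in the control, 0.793 to 1.10 with Sal, 0.221 to 0.760 with Das and 0.693 to 1.40 with S + D, so no treated library overlapped the control. At 24 h it was 0.129 ± 0.0286, 0.300 ± 0.199, 0.231 ± 0.0800 and 0.364 ± 0.172 in the control, Sal, Das and S + D, and the unnumbered library was the highest of each group. The ratio is within libraries and describes unequal change of the transcripts. It does not measure the protein chains, and it was given no test.

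**Figure D3:**
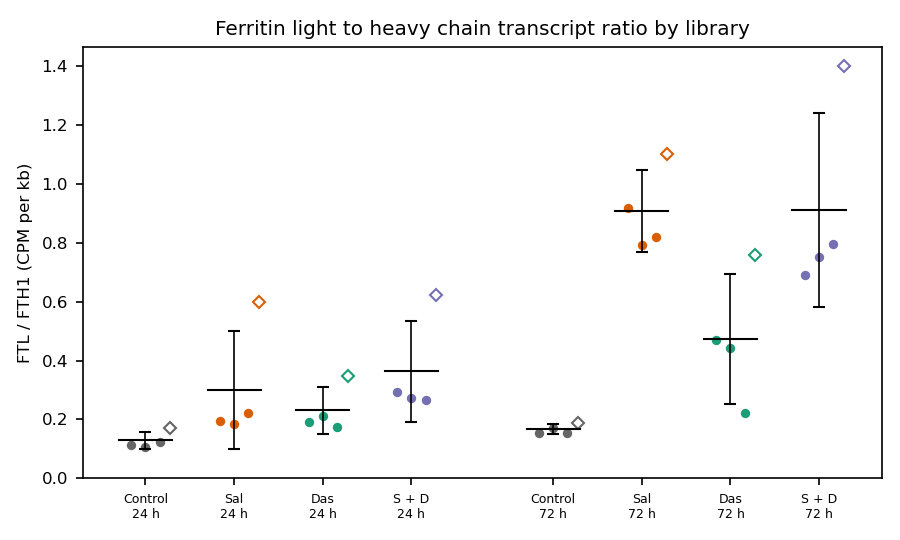
Ratio of FTL to FTH1 in CPM per kilobase (vertical axis, linear from 0) for each library of the 8 conditions (horizontal axis), drawn as circles for numbered and open diamonds for unnumbered libraries with mean ± SD. At 72 h the controls lie between 0.152 and 0.188 and the Sal libraries between 0.793 and 1.10.

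The uptake genes moved less. TFRC, the transferrin receptor, was at 474, 447, 401 and 619 CPM in the control at 72 h and at 646, 723, 726 and 868 with Sal. It was at 634, 655, 587 and 652 CPM with Das and 519.6, 615, 586 and 739 with S + D. The unnumbered control library lay within the Das and S + D ranges, and every Sal library was above every control. The Sal response was 0.59 ± 0.139 (1.51-fold, adjusted p = 0.00120), while Das gave 0.37 ± 0.139 and S + D 0.33 ± 0.139 (adjusted p = 0.0454 and 0.0470). Both of these passed in the numbered libraries (0.50 ± 0.108 and 0.36 ± 0.107, adjusted p = 0.00298 and 0.00849), with a replicate block (adjusted p = 0.00467 and 0.00710), and when the unnumbered control was left out (0.51 and 0.46).

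At 24 h, TFRC was at 670.3, 639, 645 and 773 CPM in the control and at 545, 557, 548 and 589 with S + D, which did not overlap. The difference was -0.25 ± 0.0834 (adjusted p = 0.0217), and it passed in the numbered libraries at -0.23 ± 0.0416 (adjusted p = 9.23e-05). Sal and Das differed from the control by 0.053 ± 0.0834 and -0.12 ± 0.0834. In untreated cells, TFRC fell by 0.49 ± 0.116 on the log2 scale between 24 and 72 h (adjusted p = 0.00843 over 17227 genes), the 1 of the 9 genes called in that comparison (2.76% of genes, 0.76% lower). This call was lost when any of the 8 control libraries but the unnumbered one of 72 h was left out. The control levels against which the drugs are read thus differ between the times.

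SLC11A2 (DMT1), which carries ferrous iron out of the endosome, was at 124, 114, 109 and 107 CPM in the control at 72 h and at 163, 178, 177 and 179 with Sal. It was at 137, 136, 101 and 105 CPM with Das and 136, 133, 141 and 134 with S + D. The Sal libraries were above all others, and the Das libraries lay on both sides of the controls. The log2 fold change was 0.60 ± 0.106 with Sal (adjusted p = 8.32e-05), 0.074 ± 0.105 with Das and 0.25 ± 0.106 with S + D (adjusted p = 0.619 and 0.0470). At 24 h, Sal gave 110.0, 121, 116 and 138 CPM against 92.3, 90.0, 87.5 and 94.6 in the control, a change of 0.40 ± 0.0735 (adjusted p = 0.00176), with all Sal libraries above all controls. It lost the call when only these 8 libraries were fitted (adjusted p = 0.0170).

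STEAP3, the ferrireductase of the endosome, was at 125, 127, 139 and 116 CPM in the control at 72 h, 169, 164, 168 and 160.4 in the Sal libraries, 132, 135, 119 and 134 in the Das libraries, and 162, 178, 182 and 150.3 in those given S + D. Sal and S + D did not overlap with the control or Das. The log2 fold change was 0.37 ± 0.0931 with Sal (adjusted p = 0.00223), 0.030 ± 0.0931 with Das (adjusted p = 0.834) and 0.39 ± 0.0931 with S + D (adjusted p = 0.00135). Of its merged exon bases, 11% are shared with STEAP3-AS1 on the other strand, so reads of the pair cannot be told apart where the strand was not used. At 24 h no response passed over all libraries, and in the numbered libraries Sal raised it by 0.21 ± 0.0547 (adjusted p = 0.00640). The Sal call at 72 h was lost without the unnumbered control (adjusted p = 0.0103).

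SLC39A14 (ZIP14), an importer of iron not bound to transferrin and of other metals, was called in 5 of the 6 comparisons with the control, as was FTL. At 72 h it was at 41.5, 40.4, 39.5 and 50.5 CPM in the control, 65.0, 69.6, 74.0 and 80.3 in the Sal libraries, 62.0, 63.8, 50.7 and 70.4 in the Das libraries, and 67.8, 78.3, 79.0 and 80.6 in those given S + D. Every treated library was above every control, Das replicate 3 by the smallest margin. The log2 fold change was 0.73 ± 0.119, 0.52 ± 0.118 and 0.82 ± 0.119 with Sal, Das and S + D (adjusted p = 3.85e-05, 0.00314 and 1.17e-05). The Das call was lost without control replicate 1 or 3 (adjusted p = 0.0120 and 0.0138).

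At 24 h, SLC39A14 was at 32.4, 33.3, 33.3 and 43.2 CPM in the control, 39.0, 42.2, 42.0 and 58.5 in the Sal libraries, 49.8, 46.3, 49.1 and 53.3 in the Das libraries, and 53.9, 54.9, 53.7 and 68.4 in those given S + D. Das and S + D lay above every control, and the unnumbered library was the highest of each condition. Das and S + D raised it by 0.50 ± 0.128 and 0.73 ± 0.128 (adjusted p = 0.00931 and 0.000224), and Sal by 0.34 ± 0.128, which did not pass (adjusted p = 0.0893). In the numbered libraries all 3 passed, at 0.33 ± 0.0542, 0.59 ± 0.0540 and 0.73 ± 0.0537 (adjusted p = 0.000126, 5.83e-08 and 1.06e-09), and with a replicate block Sal passed too (adjusted p = 0.00221). The Das call over all libraries lay at the threshold and was lost without control replicate 1, 2 or 3 or any 1 of the 4 Das libraries (adjusted p from 0.0153 to 0.0370).

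The exporter SLC40A1, ferroportin, was near the lower end of what these libraries resolve, and moved in opposite directions with the single drugs at 72 h. Its level there was 0.904, 1.11, 0.973 and 1.08 CPM in the control and 0.525, 0.631, 0.531 and 0.483 with Sal. It was 1.71, 2.61, 3.23 and 2.06 CPM with Das and 0.448, 0.445, 0.567 and 0.674 with S + D. All Das libraries were above, and all Sal and S + D libraries below, every control. The log2 fold change was -0.92 ± 0.249 with Sal (adjusted p = 0.00359), 1.23 ± 0.228 with Das (adjusted p = 0.000659) and -0.94 ± 0.247 with S + D (adjusted p = 0.00280).

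In the numbered libraries the Sal response did not pass (-0.84 ± 0.289, adjusted p = 0.0183), while the responses to Das (1.32 ± 0.249, adjusted p = 0.00130) and S + D (-1.05 ± 0.288, adjusted p = 0.00485) passed. The Sal call was also lost without control replicate 2 or the unnumbered Sal library, and the S + D call without control replicate 2 or S + D replicate 2 (adjusted p from 0.0114 to 0.0142 over these 4). At 24 h, Das gave 1.53, 1.57, 2.15 and 1.04 CPM against 0.938, 0.850, 0.565 and 0.705 in the control, with no overlap and a change of 1.05 ± 0.383 (adjusted p = 0.0592) that passed in the numbered libraries (1.17 ± 0.259, adjusted p = 0.00104). Sal at 24 h ran from 0.168 to 1.21 CPM and S + D from 0.850 to 1.31 CPM, and neither passed.

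The regulators ACO1 and IREB2 were each called in 1 of the 6 comparisons with the control. ACO1, the iron regulatory protein that is an aconitase when it holds an iron-sulfur cluster, was at 50.4, 46.2, 42.5 and 46.6 CPM in the control at 72 h and at 55.2, 58.3, 62.1 and 64.1 with Sal. These did not overlap, and the change was 0.35 ± 0.0951 (1.28-fold, adjusted p = 0.00368), lost without control replicate 3, Sal replicate 3 or the unnumbered Sal library (adjusted p from 0.0108 to 0.0168). With Das and S + D it differed by 0.025 ± 0.0951 and 0.14 ± 0.0950, neither called. At 24 h, Sal and S + D passed in the numbered libraries (0.21 ± 0.0526 and 0.19 ± 0.0526, adjusted p = 0.00525 and 0.00395) and with a term for the unnumbered libraries (adjusted p = 0.00514 and 0.008875), and in no other fit tried.

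IREB2, the partner that is controlled by breakdown of its protein, was at 103, 94.3, 85.7 and 98.8 CPM in the control at 72 h and at 64.8, 82.4, 79.1 and 70.2 with S + D. Every S + D library was below every control, and the change was -0.38 ± 0.114 (adjusted p = 0.00715). It was lost in the numbered libraries (-0.34 ± 0.113, adjusted p = 0.0155) and without control replicate 1, 2 or the unnumbered one, or S + D replicate 1 or the unnumbered one (adjusted p from 0.0178 to 0.0449), and lay at the threshold without S + D replicate 3. Sal and Das gave -0.099 ± 0.114 and -0.010 ± 0.114 at 72 h, and no response of IREB2 was called at 24 h.

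The combination was set beside each drug alone. Over all libraries, S + D differed from Sal in 0 of 9 genes at 24 h (edgeR; 12.9% of all genes called, 4 of 9 with an unadjusted p under 0.05, 3 called by DESeq2) and in 0 at 72 h (3.01% called, 3 with an unadjusted p under 0.05, 0 called by DESeq2). For FTL the difference was 0.36 ± 0.255 at 24 h and 0.034 ± 0.239 at 72 h, and for SLC40A1 -0.018 ± 0.262 at 72 h. In the numbered libraries at 24 h, 5 genes differed (41.4% of genes called): FTL (0.54 ± 0.0513) and SLC39A14 (0.40 ± 0.0531) were higher with S + D, and STEAP3 (-0.38 ± 0.0549), TFRC (-0.31 ± 0.0416) and SLC11A2 (-0.21 ± 0.0497) were lower. With a replicate block, 3 of these were called at 24 h, SLC39A14, STEAP3 and TFRC, where 27.6% of all genes were called.

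Against Das, S + D was higher for SLC11A2 at 24 h (0.32 ± 0.0736, adjusted p = 0.00757), the 1 gene called (8.49% of all genes, 4.03% higher), and the call was lost in the fit of these 8 libraries, with the RLE factors, with all 32 libraries, and when any of the 8 but the unnumbered Das library was left out. A replicate block added FTL and FTH1 to the genes called at 24 h (adjusted p = 1.69e-05 and 0.00154), 3 of 9 beside 22% of all genes. At 72 h, 2 genes were higher and 1 lower (32.1% of genes called, 14.3% higher and 17.7% lower): FTL by 1.61 ± 0.245 (adjusted p = 5.86e-05), STEAP3 by 0.36 ± 0.0931 (adjusted p = 0.00444) and SLC40A1 by -2.17 ± 0.242 (adjusted p = 3.21e-06). In SLC40A1 the highest S + D library (0.674 CPM) was below the lowest Das library (1.71 CPM). With a replicate block, FTH1 rose and IREB2 fell beside these (adjusted p = 0.000500 and 0.00527), 5 of 9 genes in all, beside 42.6% of all genes in that fit.

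A response to both drugs equal to the sum of the single responses on the log2 scale gives an interaction of 0. None of the 9 genes passed at 24 h (edgeR; 0.0306% of all genes called, 0 of 9 with an unadjusted p under 0.05, 0 by DESeq2) or at 72 h (7.52% called, 5 of 9 with an unadjusted p under 0.05, 1 by DESeq2). At 72 h the interaction was -1.25 ± 0.340 for FTL (adjusted p = 0.0164), -1.245 ± 0.348 for SLC40A1 (adjusted p = 0.0189) and -0.64 ± 0.196 for TFRC (adjusted p = 0.0299), each below 0. With a replicate block, FTL and TFRC passed (-1.22 ± 0.318 and -0.66 ± 0.140, adjusted p = 0.00904 and 0.00273, 16.8% of all genes called), and in the numbered libraries TFRC did (-0.78 ± 0.152, adjusted p = 0.00286, 12.9% called). In the numbered libraries at 24 h, FTH1 (0.44 ± 0.100, adjusted p = 0.00765) and TFRC (-0.33 ± 0.0588, adjusted p = 0.00115) passed, where 5.09% of all genes did.

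Whether a response differed between the time points was tested over all 32 libraries. The Sal response of FTL was greater at 72 h by 1.62 ± 0.376 (adjusted p = 0.00136), the 1 gene called for Sal (21.9% of 17227 genes, 8.21% higher). For S + D, 3 responses were greater at 72 h (16.3% of genes called, 6.15% higher): FTL by 1.35 ± 0.375 (adjusted p = 0.00801), TFRC by 0.63 ± 0.163 (adjusted p = 0.00486) and STEAP3 by 0.56 ± 0.113 (adjusted p = 0.000556). The number called for S + D fell to 1 without the unnumbered control of 24 h, control replicate 1, 2 or 3 of 72 h, S + D replicate 1, 2 or 3 of 24 h, or the unnumbered S + D library of 72 h. For Das, 0 passed (edgeR; 0.226% of genes called, 1 of 9 with an unadjusted p under 0.05, 0 by DESeq2). With a replicate block, TFRC (0.55 ± 0.132, adjusted p = 0.00120) and SLC39A14 (0.40 ± 0.113, adjusted p = 0.00453) passed beside FTL for Sal, where 33.7% of all genes were called.

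The genes whose mean log2 CPM over the 8 conditions ran most like that of a member were looked up, as a description over 8 points that share these libraries. For TFRC, among 11205 genes of at least 5 CPM, they were PCSK7 (r = 0.929), IMMP1L (0.898) and SEC14L5 (0.877). For FTH1 they were IWS1 (0.973), TBC1D22A-DT (0.972) and GTPBP4 (0.971). For SLC40A1, among 13447 genes of at least 1 CPM, they were TENT5C (0.985), CMAHP and ELL2 (both 0.975).

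Other genes of iron handling were taken from 4 lists, iron transport and control, iron-sulfur cluster assembly, heme synthesis and ferroptosis, with 87 genes in all. The filter on low counts left 79 to test. At 24 h, 4 rose and 0 fell with Sal, 9 rose and 5 fell with Das, and 15 rose and 14 fell with S + D. These are 5.06%, 17.7% and 36.7% of the genes tested, beside 6.78%, 13.9% and 33.6% of all genes. At 72 h, 24 rose and 21 fell with Sal, while 9 rose and 7 fell with Das and 26 rose and 18 fell with S + D. These are 57.0%, 20.3% and 55.7% of the genes tested, close to the 53.2%, 19.9% and 54.9% of all genes.

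In iron transport and control, 7 of 30 rose and 11 fell with Sal at 72 h, while 5 rose and 4 fell with Das and 6 rose and 9 fell with S + D. These are 60%, 30% and 50% of the genes tested, beside 53.2%, 19.9% and 54.9% of all genes. STEAP4, a metalloreductase related to STEAP3, moved in the directions of SLC40A1 at 72 h, with -2.51 ± 0.22 for Sal, 1.08 ± 0.21 for Das and -1.69 ± 0.21 for S + D, all called. CYBRD1, a reductase of the plasma membrane, rose with Das at 72 h (1.08 ± 0.22, adjusted p = 0.00133) and gave -0.18 and -0.43 with Sal and S + D, of which S + D was lower than Das (-1.51 ± 0.22, adjusted p = 4.29e-05). Ceruloplasmin (CP), a ferroxidase that works with ferroportin, fell with Sal (-2.87 ± 0.48) and S + D (-5.49 ± 0.55), and with Das gave -1.58 ± 0.45 (adjusted p = 0.0120). HEPHL1, of the same family, fell with all 3 (-2.07, -3.55 and -3.69), from 1.32 CPM in the control.

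Transferrin itself (TF) fell with Sal (-1.86 ± 0.29) and S + D (-2.32 ± 0.30) at 72 h but rose with Sal at 24 h (0.87 ± 0.18, adjusted p = 0.00338). LRP1, a receptor that takes up heme bound to hemopexin, rose with all 3 treatments at both times (1.17 to 2.22). BMP6, a growth factor that induces hepcidin, rose with Sal and S + D at 72 h (2.497 ± 0.41 and 3.13 ± 0.41), from 0.653 CPM in the control. HMOX1, the heme oxygenase that frees iron from heme, fell with Sal at 72 h (-1.09 ± 0.26, adjusted p = 0.00157) and gave 0.50 ± 0.26 with S + D (adjusted p = 0.101), which passed in the numbered libraries (0.81, adjusted p = 6.46e-05).

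FBXL5, the sensor that directs IREB2 protein to breakdown, rose with Sal at 72 h (0.46 ± 0.10, adjusted p = 0.000715). MCOLN1, a channel that lets iron out of the lysosome, fell with Das and S + D at 24 h (-0.47 ± 0.12 and -0.59 ± 0.12). TFR2, a second transferrin receptor, fell with S + D at 24 h (-1.36 ± 0.28) and Das at 72 h (-1.04 ± 0.27), at 0.420 to 1.10 CPM. The iron chaperones PCBP1 and PCBP2 were called in none of the 6 comparisons over all libraries. STEAP1 and STEAP2 were at or under 0.117 and 0.210 CPM on average in every condition and were not tested.

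In iron-sulfur cluster assembly, 8 of 26 rose and 4 fell with Sal at 72 h, while 1 rose and 2 fell with Das and 10 rose and 3 fell with S + D. These are 46.2%, 11.5% and 50% of the genes tested, beside 53.2%, 19.9% and 54.9% of all genes. The scaffold ISCU rose with all 3 at 72 h (1.5 ± 0.16, 0.79 ± 0.15 and 1.57 ± 0.16). In heme synthesis, 4 of 10 rose and 2 fell with Sal, while 1 rose and 0 fell with Das and 4 rose and 2 fell with S + D. The shares called were 60%, 10% and 60%, beside the same shares of all genes. UROD (2.13 ± 0.21 and 2.00 ± 0.21), PPOX (1.57 ± 0.22 and 1.62 ± 0.22) and ALAS1 (0.80 ± 0.13 and 0.54 ± 0.12), enzymes of the pathway, rose with Sal and S + D, while FECH, which inserts the iron, gave 0.0029 and 0.25 and was not called.

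In the ferroptosis list, 5 of 13 rose and 4 fell with Sal at 72 h, while 2 rose and 1 fell with Das and 6 rose and 4 fell with S + D. These are 69.2%, 23.1% and 76.9% of the genes tested, beside 53.2%, 19.9% and 54.9% of all genes. SLC7A11, the cystine importer, rose with all 3 at 72 h (1.30 ± 0.18, 1.15 ± 0.18 and 1.30 ± 0.18) and with Das and S + D at 24 h (1.45 ± 0.22 and 2.01 ± 0.22). GPX4, which reduces lipid peroxides, rose with Sal (0.63 ± 0.13) and S + D (1.01 ± 0.13) at 72 h. CHAC1, which degrades glutathione, rose with all 3 at 24 h (1.29, 1.83 and 1.84) and with Sal and S + D at 72 h (1.38 and 1.43).

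**Figure D4:**
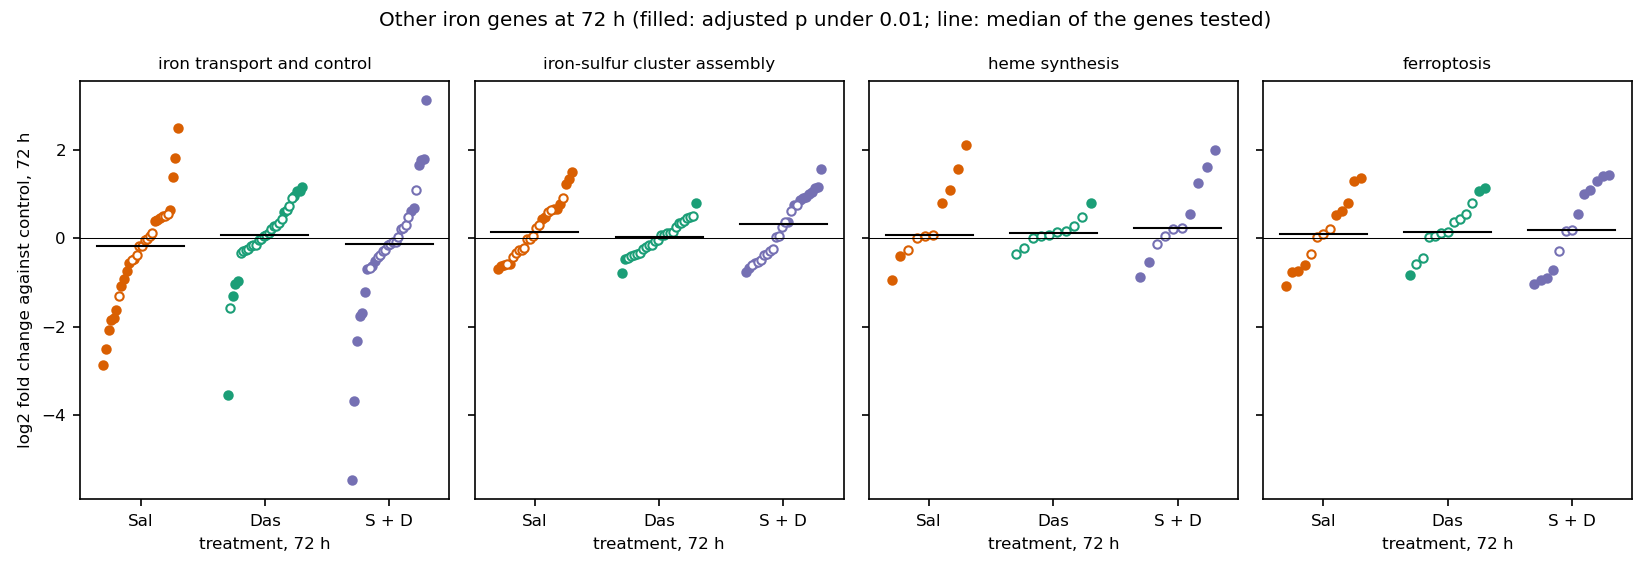
Log2 fold change against the control at 72 h (vertical axis) of each tested gene of 4 lists, for Sal, Das and S + D (horizontal axis, genes sorted by value within a treatment). Filled points passed an adjusted p under 0.01 and the line is the median of the genes tested, which lies between -0.18 and 0.32 in every list and treatment.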

How the data were processed

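RNA of MDA-MB-468 cells was measured in 32 libraries, 4 for each of 8 conditions. The authors sequenced single-end reads (TruSeq libraries), aligned them with STAR 2.5.2 to GRCh37 and deposited raw counts of reads per Ensembl gene, without normalization. The sources also name bcl2fastq 2.19, Cufflinks 2.1.1 and DESeq2. Which program counted the reads, on which annotation and whether by strand is not given in the sources used here. Of 48804 identifiers, 46537 matched GENCODE v44 lifted to GRCh37, which gave symbols, positions and transcript lengths. The members and lists were chosen with earlier results of these data known.

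The tests were those of edgeR 4.0.16 (R 4.3.3), quasi-likelihood on TMM-normalized libraries after filterByExpr (minimum count 10), with Benjamini-Hochberg adjustment over all genes tested. Each time point had its own fit of 16 libraries (16357 genes at 24 h, 16682 at 72 h), and comparisons between times used all 32 (17227 genes). All 9 matched members passed the filter in each fit. A gene was called at an adjusted p under 0.01. The SE of a log2 fold change is its size divided by the square root of F. CPM uses the TMM factors, and CPM per kilobase divides by the length of the MANE Select transcript. The total count per library lay between 25692561 and 42769687. Precision rests on these counts and on the spread between libraries. The SE of FTL with Sal at 24 h was 0.259 over all libraries and 0.0521 in the numbered ones. The p-values of the edgeR test weigh a difference of group means against the spread between libraries of this line. That spread holds the shared deviation of the unnumbered libraries where these are included and given no term. In the numbered libraries alone this deviation is left out, and that choice was made after it was seen.

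The text names all members, 14 listed genes of the accompanying lists, up to 5 further genes per list with the largest change past both cutoffs (adjusted p under 0.01, absolute log2 fold change above 1.5) where a compared group averaged 1 CPM or more, and the 3 genes most like TFRC, FTH1 and SLC40A1. Shared replicate numbers were checked as pairs. Among numbered libraries, deviations of the same number correlated at a median of 0.000669 (24 h) and 0.000796 (72 h), so the numbers do not pair them. With the unnumbered libraries in the group means, all same-number pairs exceeded 0.1 at 24 h but so did all pairs of different number. Values with the block are given where they change a call. Alternatives were RLE factors, no filter, the block, DESeq2 1.42.0, other thresholds, only the groups compared, all 32 libraries, numbered libraries only, a term for the unnumbered libraries, summed ferritin pseudogenes, and each library left out. A further marker of other cell types is not reported here. The procedure was tested on simulated data.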

Additional observations from a re-analysis of the deposited data

Results flagged for a closer look

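Each of the 72 groups of 4 libraries (9 genes, 8 conditions) was screened for a library whose gap to its nearest neighbour, as a share of the range of its group, exceeded Dixon's critical value. The 9 genes are read in the same libraries, so the groups are not independent and their count is a description, not a test. Among independent groups with normal spread, chance gives such a gap in about 1 of 20, and 14 groups had one. The library was an unnumbered one in 10 of the 14: FTH1 in the control at 72 h (1095 CPM, lowest), FTL at 24 h with Sal (592), Das (304) and S + D (573), ACO1 in the control at 24 h (45.6), with Sal at 24 h (61.3) and with S + D at 72 h (57.7), and SLC39A14 at 24 h in the control (43.2), with Sal (58.5) and with S + D (68.4), the last 9 the highest of their group.

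The others were numbered libraries, each the lowest of its group. With Das at 72 h, replicate 3 was apart in FTL (191 CPM) and STEAP3 (119 CPM). Replicate 1 was apart in SLC11A2 with Sal at 72 h (163 CPM), and replicate 3 in STEAP3 with S + D at 24 h (111 CPM).

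Responses that differed between 24 and 72 h by the test of the difference (edgeR quasi-likelihood test over 32 libraries) were those of FTL to Sal (1.62 higher at 72 h on the log2 scale, adjusted p = 0.00136), and of FTL (1.35, adjusted p = 0.00801), TFRC (0.63, adjusted p = 0.00486) and STEAP3 (0.56, adjusted p = 0.000556) to S + D.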

How the results depend on the processing

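Of 444 refits of a member's log2 fold change with another setting and 432 without 1 library, 387 and 384 kept their direction and their side of the threshold. The sign turned in 14 and 18, none of them called before or after. In the numbered libraries it turned for IREB2 with Sal (0.062) and SLC40A1 with Sal (0.18) and TFRC with Das (0.020) at 24 h, and for STEAP3 (-0.024) and IREB2 (0.056) with Das at 72 h. IREB2 turned with only the groups compared for Sal at 24 h (0.012) and without a filter for Das at 72 h (0.0025), and with S + D at 24 h under 7 settings (-0.031 with all 32 libraries, -0.024 with DESeq2, -0.018 without a filter, -0.013 with only the groups compared, -0.0020 with a replicate block, -0.023 with RLE factors and -0.00116 with a term for the unnumbered libraries). With 1 library left out, the sign of some responses turned in part of the fits. Over all of these fits, turned or not, such responses to Sal at 24 h ran from -0.089 to 0.087 (IREB2), -0.50 to 0.23 (SLC40A1) and -0.022 to 0.18 (FTH1). For S + D at 24 h the range was -0.044 to 0.054 (IREB2). For Das at 72 h the ranges were -0.013 to 0.086 (STEAP3), -0.014 to 0.072 (ACO1) and -0.057 to 0.057 (IREB2). Of the refits with another setting, 15 lost and 28 gained a call, and of those without 1 library, 27 lost and 3 gained one. The calls lost were, without a filter on low counts, those of SLC39A14 with Das at 24 h, STEAP3, ACO1 and SLC40A1 with Sal and IREB2 and SLC40A1 with S + D at 72 h (adjusted p from 0.0134 to 0.0399). With only the groups compared they were FTL and SLC11A2 with Sal at 24 h and FTL and SLC39A14 with Das at 72 h (0.0107 to 0.0182), with all 32 libraries SLC40A1 with Sal and S + D at 72 h (0.0185 and 0.0148), with RLE factors SLC39A14 with Das at 24 h (0.0122), and in the numbered libraries SLC40A1 with Sal and IREB2 with S + D at 72 h (0.0183 and 0.0155). The cause of these changes was not tested. The counts of calls that moved by over 1.5 times are given in the order 24 h, then 72 h. These counts are of members unless other iron genes are named. The share of all genes called moved with the setting too. For Das at 24 h it was 13.9% in the main fit, 39.3% in the numbered libraries and 27.4% with a replicate block. It is not given here for each setting, so a moved count is not a result about the iron genes.

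With the numbered libraries only, Sal called 5 members and 15 other iron genes at 24 h (main: 2 and 4), Das 4 and 34 (1 and 14) and S + D 5 members (2). S + D against Sal called 5 (0) and against Das 4 (1) at 24 h and 5 (3) at 72 h, the interaction 2 (0) and 1 (0), the change over time 3 for Sal (1) and 1 for Das (0), and the controls of 72 h against 24 h 2 (1). A term for the unnumbered libraries gave 4 and 15 for Sal, 3 and 29 for Das and 4 members for S + D at 24 h, 27 other iron genes for Das at 72 h (16), 5 against Sal and 3 against Das at 24 h, 6 against Das at 72 h, 2 interactions at 72 h, 3 for the change over time of Sal and 2 between controls.

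The numbers do not pair the numbered libraries, and a replicate block mostly takes up the unnumbered ones. The replicate block gave 11 other iron genes for Sal and 2 members and 25 other iron genes for Das at 24 h, 26 other iron genes for Das at 72 h, 3 members each against Sal and Das at 24 h, 5 against Das and 2 interactions at 72 h, and 3 for the change over time of Sal. DESeq2 gave 8 other iron genes for Sal, 3 against Sal and 2 against Das at 24 h, 1 interaction at 72 h, 2 for the change over time of Sal and 2 between controls. RLE factors gave 0 for Das and 0 against Das at 24 h and 2 for the change over time of Sal. Without a filter on low counts, Das called 0 at 24 h, Sal 4 and S + D 3 at 72 h, 1 interaction passed at 72 h and 0 genes between controls. All 32 libraries together gave 1 against Sal and 0 against Das at 24 h, and 1 against Sal, 5 against Das and 1 interaction at 72 h. Only the groups compared gave 0 for Sal and 0 against Das at 24 h and 1 for Das at 72 h.

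An adjusted p under 0.05 gave 10 other iron genes for Sal, 4 against Sal and 2 against Das at 24 h, 27 other iron genes for Das, 1 against Sal, 6 against Das and 3 interactions at 72 h, 2 for the change over time of Sal and 2 between controls. With the size cutoff added, Sal, Das and S + D called 0, 0 and 1 members and 1, 4 and 6 other iron genes at 24 h, and 1, 0 and 1 members and 10, 1 and 12 other iron genes at 72 h, with 0 against Das at 24 h, 0 for the change over time of S + D and 0 between controls.

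Leaving out 1 library at a time gave 1 to 2 members for Sal at 24 h (1 without any of the 4 controls) and 1 to 5 other iron genes (under 4 without control replicate 1, 2 or 3), and 0 to 1 members for Das at 24 h and 8 to 16 other iron genes (8 or 9 without control replicate 1, 2 or 3 or Das replicate 1). It gave 0 to 2 against Sal at 24 h (2 with the unnumbered Sal library left out), 0 to 1 against Das at 24 h, 3 to 5 for S + D at 72 h (3 without control replicate 2) and 0 to 1 interactions at 72 h (1 without the unnumbered control or Das replicate 3). The change over time gave 1 to 3 for Sal (2 or 3 without the unnumbered control of 72 h, the unnumbered Sal library of 24 h or Sal replicate 1 of 72 h) and 1 to 3 for S + D, and the controls 0 to 1. Depth limits SLC40A1, whose level stayed at or under 3.23 CPM.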
